A study of Mus musculus with 6 samples.

Results

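The matrix metalloproteases (Mmp), the secreted proteases of the Adamts family and the tissue inhibitors of metalloproteases (Timp) were followed in pancreatic stellate cells (PSCs) at 2 oxygen levels. Members were all protein-coding genes of the count table whose symbol in GENCODE M21 is Mmp with a number and an optional letter, Adamts with a number, or Timp with a number. This rule gave 45 of the 55426 features: 22 Mmp, 19 Adamts and 4 Timp genes. The Adamts-like genes, which lack a protease domain, and Mmp1a, annotated as a polymorphic pseudogene, were not members. PSCs are fibroblast precursors of the pancreas, here primary cells from young adult wild-type C57BL/6 mice, used at low passage. In both groups they were embedded in Matrigel on a transwell insert above organoids of mT3, a mouse pancreatic ductal adenocarcinoma (PDAC) line from the KPC model, for 48 h. The 3 normoxic samples were kept at 21% O2 and the 3 hypoxic samples at 1% O2, so that oxygen was the labelled difference, and all carried the same strain and coculture. The labels do not say whether the 3 samples of a group came from separate mice or isolates, so the p-values measure the spread between these samples, which may be technical. The comparison asked how low oxygen, as found in PDAC, changes the transcripts of PSCs that sit beside tumor cells.

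Mmps are zinc-dependent enzymes that cut collagens and other matrix proteins, and most are secreted as inactive proenzymes. Adamts proteases share the zinc site but carry thrombospondin repeats, and they cut proteoglycans such as aggrecan and versican or trim the ends of procollagens. Timps bind the active site of these enzymes, with partly different preferences, and fibroblasts are a main source of all of these families in the stroma of pancreatic tumors. Because many of these proteins are activated or blocked after secretion, a transcript level is not an enzyme activity.

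Members of every family moved in both directions at 1% O2. Of the 45 members, 36 passed the filter on low counts. A member was called at a fold change beyond 1.5 and an adjusted p under 0.05 in edgeR's quasi-likelihood test over all 16207 genes tested. By this rule 28 of the 36 were called, 16 higher and 12 lower at 1% O2, and 8 were not called. Over all tested genes 34.2% were called, 18.9% higher and 15.3% lower. The Mmp genes held 7 called higher and 5 called lower among 17 tested, and the Adamts genes 7 and 5 among 15. Of the 4 Timp genes, 2 were higher and 2 lower. The median log2 fold change was 0.09 over the tested members, -0.22 over Mmp, 0.24 over Adamts and -0.03 over Timp genes, beside -0.004 over all tested genes. In 33 of the 36 the 3 hypoxic values lay entirely above or below the 3 normoxic values, which was also so for 68.9% of all tested genes. In RNA from a whole culture, fewer cells of one type and less RNA per cell cannot be told apart.

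**Figure D1:**
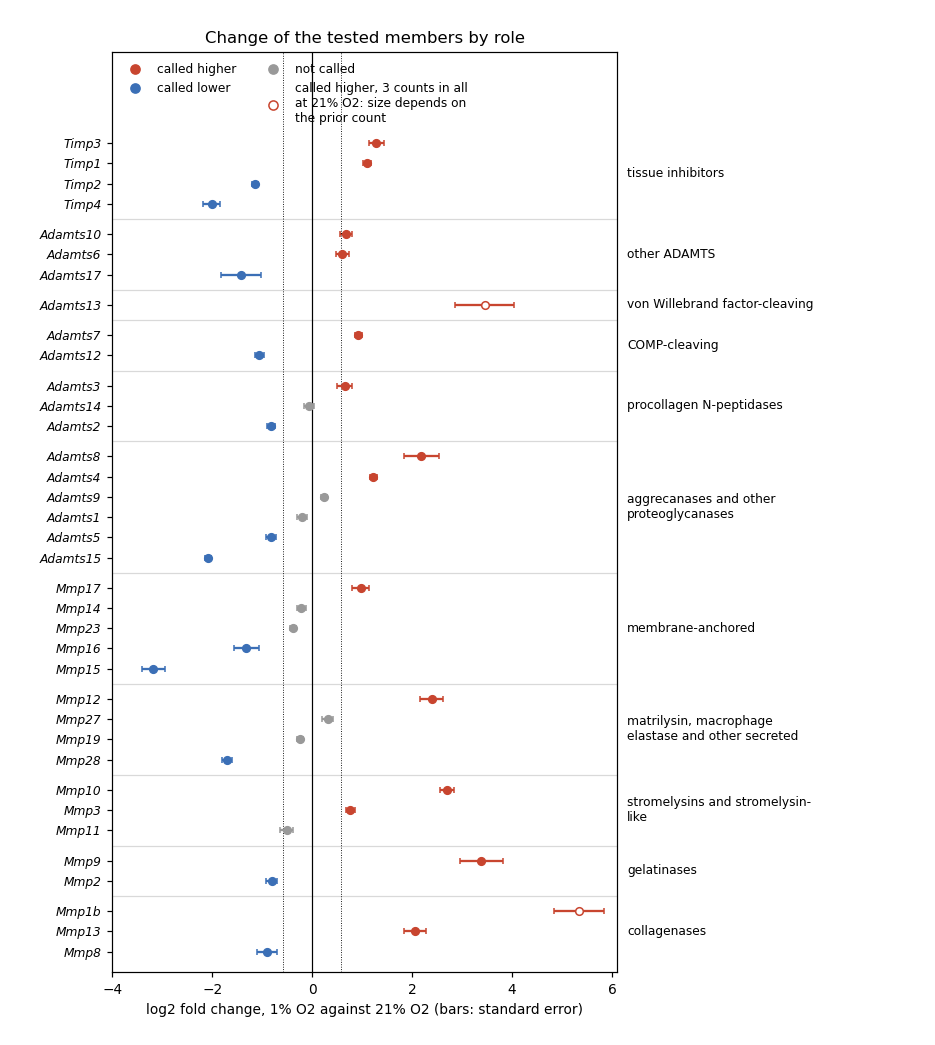
Log2 fold change (1% against 21% O2) of the 36 tested members, grouped by role, with points for the edgeR estimate and bars for its standard error. Dotted lines mark a fold change of 1.5, and open points mark Mmp1b and Adamts13, which had 3 counts in all at 21% O2. Within most roles, members lie on both sides of 0.

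The libraries held 24749601 to 31925054 counts, and levels are given as CPM, the read count scaled to the size of the library by the TMM method. A floor of 3 counts amounts to 0.0942 CPM in the deepest and 0.122 CPM in the shallowest library. This floor covers counting error only. All 10 genes of a low-oxygen response list were called higher at 1% O2. The cultures expressed 12 of 12 fibroblast and stellate cell markers past the filter, at a summed 28440 to 35635 CPM in normoxia and 30469 to 35313 CPM in hypoxia. They also held macrophage transcripts: all 15 macrophage markers were tested, 10 were lower and 0 higher at 1% O2, and their sum was 1070.3 to 1905 CPM in normoxia and 548 to 1000.5 CPM in hypoxia. Of 10 epithelial and tumor markers 3 were tested and 1, Krt19, was higher at 1% O2, and their sum was 3.22 to 5.39 CPM in normoxia and 25.03 to 29.01 CPM in hypoxia. Epcam had at most 1 count in any library, while Krt19 was at 0.714 ± 0.297 CPM (SD, n = 3) in normoxia and 22.1 ± 1.66 CPM in hypoxia. Of 6 tested endothelial markers 2 were higher and 2 lower, and the 1 tested acinar marker was not called. The part of these other cells in the changes of the members was not tested. None of the 8 neutrophil markers passed the filter, and 4 were at 0 counts in every library.

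Levels can be set side by side between genes only after division by transcript length, here as CPM per kilobase of annotated exon. Of this per-kilobase sum over the Mmp genes, 4 genes made up 95.7 to 96.0% in the normoxic and 92.0 to 92.2% in the hypoxic samples: the gelatinase Mmp2, the stromelysin Mmp3, the membrane-anchored Mmp14 and the stromelysin-like Mmp11. At 21% O2 Mmp2 led all members with 1447 ± 199 CPM per kilobase (SD, n = 3), ahead of Mmp3 with 937 ± 71.0. At 1% O2 their order was turned, with 1590.1 ± 144 for Mmp3 and 825 ± 69.7 for Mmp2. The share of Mmp2 in the Mmp sum was 43.7 ± 2.004% and 25.1 ± 2.70%, and that of Mmp3 28.6 ± 3.13% and 48.2 ± 3.14%, at 21% and 1% O2. The sum itself was 3300.2 ± 318 in normoxia and 3295 ± 87.9 in hypoxia, a ratio of 0.999 that fell on either side of 1 under other settings.

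Among the inhibitors the same exchange of places was seen. Timp2 was first at 21% O2 with 429.6 ± 19.96 CPM per kilobase, before Timp1 with 240.4 ± 21.2. At 1% O2 Timp1 had 512 ± 30.3 and Timp2 194 ± 11.02, and the share of Timp1 in the Timp sum went from 35.2 ± 0.923% to 70.3 ± 1.87%. The Timp sum was 682 ± 42.9 in normoxia and 729 ± 31.0 in hypoxia. For the Adamts genes the sum was 339 ± 21.4 and 257 ± 1.64, a ratio of 0.758. The procollagen peptidase Adamts2 was the most abundant Adamts transcript at both oxygen levels, with 50.1 ± 1.44% and 37.5 ± 2.28% of that sum. Behind it, Adamts15 held 13.7 ± 0.512% in normoxia and 4.22 ± 0.181% in hypoxia, while Adamts4 held 5.04 ± 0.186% and 15.5 ± 0.617%. These sums and shares are descriptions without a test.

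**Figure D2:**
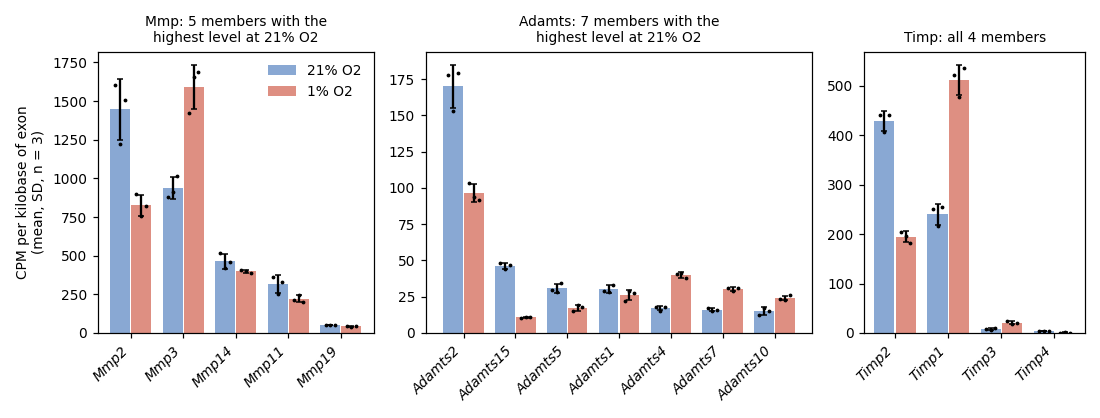
CPM per kilobase of exon at 21% and 1% O2 for the leading Mmp and Adamts genes and all 4 Timp genes (bars: mean, error bars: SD, dots: the 3 samples of a group). Mmp3 passes Mmp2 and Timp1 passes Timp2 at 1% O2, and Adamts15 drops below Adamts4.

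The collagenases, the stromelysins Mmp3 and Mmp10 and macrophage elastase lie together on chromosome 9 (GRCm38, chr9:7272514-7699585, 427 kb), and this cluster held 5 of the 7 Mmp genes called higher. In order along the chromosome it holds Mmp13, Mmp12, Mmp1b, Mmp3, Mmp1a, Mmp10, Mmp8, Mmp27, Mmp20 and Mmp7. Of its 7 tested genes, Mmp13, Mmp12, Mmp1b, Mmp3 and Mmp10 were higher and Mmp8 was lower at 1% O2, and Mmp27 was not called. Over all tested genes 18.9% were called higher and 15.3% lower. Along the chromosome the 5 genes called higher came first, from Mmp13 to Mmp10 with the untested Mmp1a among them, followed by Mmp8 and Mmp27.

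**Figure D3:**
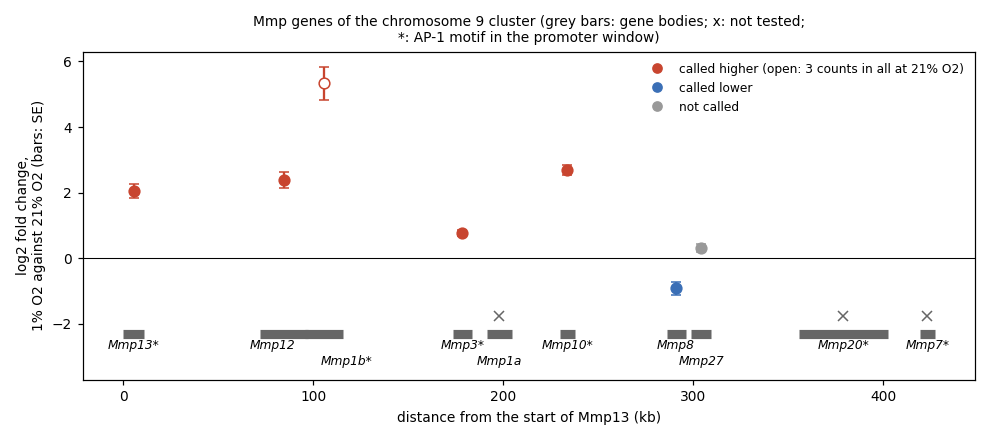
Log2 fold change (1% against 21% O2, bars: standard error) of the genes of the chromosome 9 Mmp cluster against their distance from the start of Mmp13 in kb, with gene bodies as grey bars and crosses for the 3 genes that were not tested. Stars mark genes whose promoter window holds the AP-1 motif. They stand on 4 of the 5 genes called higher and on Mmp20 and Mmp7, both at 0 counts.

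The promoters of these genes are shown because several share a motif. RefSeq windows (GRCm38.p6, 250 bases before to 50 after the start) matched 31 of the 45 members. They were searched on both strands for TGANTCA, the motif of the AP-1 transcription factors, which reads the same on both strands, and for the letters TATAAA of the TATA box. TGANTCA was found in 6 of the 31 windows and in 7.81% of all 32851 windows. All 6 belong to the cluster, which has 9 matched members, and 0 of the 22 matched members elsewhere held it. The 14 members without a window were not searched. Among them are Mmp9 and Mmp17, the other Mmp genes called higher. Adamts4, Adamts6, Adamts7, Adamts8 and Adamts10, also called higher, had no window either. Mmp13, Mmp3, Mmp10 and Mmp1b have TGANTCA 35, 46, 63 and 93 bases upstream of the RefSeq start. Mmp12, also higher, and Mmp8, lower, did not have it, and Mmp7, at 0 counts in every library, did. The 120 bases before each RefSeq start follow in the direction of transcription, with TGANTCA and TATAAA in capitals. Mmp13 is chr9:7272394-7272513, Mmp3 chr9:7445702-7445821, Mmp10 chr9:7502222-7502341, Mmp12 chr9:7344277-7344396, Mmp8 chr9:7558309-7558428 and Mmp7 chr9:7691970-7692089 on the plus strand, and Mmp1b is chr9:7388027-7388146 on the minus strand.
Mmp13: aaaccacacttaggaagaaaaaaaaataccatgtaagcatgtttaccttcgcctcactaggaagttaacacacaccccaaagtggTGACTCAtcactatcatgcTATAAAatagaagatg
Mmp3: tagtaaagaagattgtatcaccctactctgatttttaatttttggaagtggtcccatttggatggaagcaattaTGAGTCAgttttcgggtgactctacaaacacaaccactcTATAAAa
Mmp10: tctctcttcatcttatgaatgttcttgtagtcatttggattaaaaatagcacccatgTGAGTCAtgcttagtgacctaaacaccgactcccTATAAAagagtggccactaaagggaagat
Mmp1b: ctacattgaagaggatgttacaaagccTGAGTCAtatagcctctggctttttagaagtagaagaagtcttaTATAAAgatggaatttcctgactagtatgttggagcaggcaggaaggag
Mmp12: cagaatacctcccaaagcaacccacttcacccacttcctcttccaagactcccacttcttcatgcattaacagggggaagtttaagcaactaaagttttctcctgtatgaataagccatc
Mmp8: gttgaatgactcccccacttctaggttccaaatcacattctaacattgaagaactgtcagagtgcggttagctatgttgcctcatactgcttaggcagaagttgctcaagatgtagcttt
Mmp7: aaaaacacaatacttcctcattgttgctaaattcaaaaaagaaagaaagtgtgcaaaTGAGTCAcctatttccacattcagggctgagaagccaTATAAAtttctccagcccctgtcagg
A match is a description of these letters and not of binding, and a window without a match says nothing of the rest of the locus.

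Collagenases cut the triple helix of fibrillar collagen. Of the 3 tested genes grouped with them by name, 2 rose and 1 fell. Mmp13, collagenase-3, was at 43.7, 20.2 and 28.5 CPM in normoxia 1, 2 and 3 and at 129.9, 122 and 133 CPM in hypoxia 1, 2 and 3. The hypoxic samples lay close together and all above the normoxic ones, a 4.16-fold rise (log2 fold change 2.06, SE 0.22, adjusted p = 4.28e-05). Mmp8, the neutrophil collagenase, was low and fell, from 6.08, 4.21 and 6.28 CPM to 2.43, 2.93 and 3.39 CPM in the samples in the same order (1.88-fold lower, log2 fold change -0.91, SE 0.20, adjusted p = 0.00338). Its groups did not overlap, and neutrophil markers summed to at most 1.40 CPM in any library. Mmp1b, whose cutting of collagen was not examined here, had 1, 1 and 1 counts in the normoxic and 39, 40 and 77 counts in the hypoxic libraries. The ratio of its summed counts, scaled for library size, was 45.2 with an exact 95% counting interval of 15.2 to 221, and it was called higher (adjusted p = 2.03e-05). Its 1449 exonic bases share 157 with Mmp12 on the opposite strand. Spread evenly over its exons, the counts of Mmp12 would place 11.4 to 18.9 in these bases in normoxia and 63.4 to 133 in hypoxia, and the strand setting of the counting is not given in the sources used here. Mmp1a, its close paralog outside the rule, had 0 counts in normoxia and 0, 4 and 7 in hypoxia, and reads of near-identical genes are divided by an estimate.

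The stromelysins cut proteoglycans, fibronectin and laminin and activate other pro-Mmps. Mmp3, stromelysin-1 and after Mmp2 the most abundant member at 21% O2 per kilobase, rose from 1588, 1645 and 1832 CPM in the 3 normoxic samples to 2566, 2983 and 3042 CPM in the 3 hypoxic samples. Every hypoxic value exceeded every normoxic one, by 1.70-fold on average (log2 fold change 0.76, SE 0.089, adjusted p = 7.99e-05). Mmp10, stromelysin-2, had 34.6, 21.2 and 26.7 CPM at 21% O2 and 173, 177 and 186 CPM at 1% O2. Its rise of 6.49-fold (log2 fold change 2.70, SE 0.15, adjusted p = 8.05e-07) stood clear of a narrow spread in hypoxia. Mmp11, called stromelysin-3 though it lies outside the cluster (chr10:75923222-75936496) and is activated inside the cell by furin, was at 877 ± 156 CPM (SD, n = 3) in normoxia and 615 ± 64.3 CPM in hypoxia. It was not called (log2 fold change -0.51, SE 0.13, adjusted p = 0.00659), since its fold of 1.43 was below 1.5, and it passed that threshold when normoxia 2 (log2 fold change -0.65) or hypoxia 2 (-0.60) was left out.

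The 2 gelatinases, which degrade denatured collagen and the type IV collagen of basement membranes, moved in opposite directions. Mmp2 (chr8:92827291-92853420), secreted by fibroblasts and activated by Mmp14 together with Timp2, had 5417, 4127 and 5087 CPM at 21% O2 and 3022, 2553 and 2767 CPM at 1% O2. The lowest normoxic sample was above the highest hypoxic one, and the level was 1.75-fold lower (log2 fold change -0.81, SE 0.11, adjusted p = 0.000217). Mmp9 (chr2:164940780-164955850), stored by neutrophils and induced in many cells by cytokines, was scarce, with 16, 23 and 13 counts in normoxia and 111, 367 and 163 in hypoxia. In CPM these are 0.616, 0.872 and 0.527 and 4.36, 11.7 and 5.12, a 10.5-fold rise (log2 fold change 3.39, SE 0.44, adjusted p = 0.000150) with hypoxia 2 well above the other hypoxic samples. Per kilobase, Mmp9 at 1% O2 (1.99 ± 1.14) was still far below Mmp2 (825 ± 69.7).

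Of the other secreted Mmps, Mmp12 rose and Mmp28 fell. Mmp12, macrophage elastase, was at 20.2, 29.6 and 35.4 CPM in normoxia and 115, 196 and 135 CPM in hypoxia, which is 5.24-fold higher (log2 fold change 2.39, SE 0.23, adjusted p = 2.56e-05). All hypoxic samples were above all normoxic ones, and as for Mmp9 the highest was hypoxia 2. Counts of the macrophage gene Lyz2 were 16955, 30666 and 21766 in normoxia and 8020, 17116 and 12032 in hypoxia. Among the hypoxic samples this marker was also highest in hypoxia 2. Among the normoxic samples Lyz2 was highest in normoxia 2 and Mmp12 in normoxia 3. Lyz2 was lower in CPM at 1% O2 (log2 fold change -1.12). Mmp28, epilysin, had 15.3, 16.4 and 14.5 CPM at 21% O2 and 4.79, 4.65 and 4.74 CPM at 1% O2. It was 3.26-fold lower without overlap (log2 fold change -1.70, SE 0.096, adjusted p = 1.04e-06), and 466 of its exonic bases are shared with 1700020L24Rik on the opposite strand, which had 73 to 86 counts in normoxia and 31 to 47 in hypoxia. Mmp19 (179.7 ± 6.298 against 152 ± 11.4 CPM, log2 fold change -0.24) and Mmp27 (10.7 ± 0.856 against 13.2 ± 1.72 CPM, 0.31) were not called. Mmp19, like Mmp11 and Adamts9, shares exonic bases with a gene on the opposite strand (789 with Tmem198b, 155 with Chchd10 and 1381 with A730049H05Rik, respectively).

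The membrane-anchored Mmps act at the cell surface, and the dominant one was not called. Mmp14 (chr14:54431612-54445364), which cuts collagen around the cell and activates pro-Mmp2, was at 3067, 2489 and 2722 CPM in normoxia and 2422, 2401 and 2303 CPM in hypoxia. The hypoxic values were all below the normoxic ones, but by 1.16-fold only and with an adjusted p just above the threshold (log2 fold change -0.22, SE 0.085, adjusted p = 0.0505). Mmp15, a close relative in the transmembrane group, had the largest fall of the tested members, from 4.35, 5.80 and 4.01 CPM to 0.549, 0.478 and 0.534 CPM. In counts these were 113, 153 and 99 against 14, 15 and 17, a 9.03-fold fall (log2 fold change -3.17, SE 0.23, adjusted p = 4.76e-06) in which every hypoxic sample was far below every normoxic one. Mmp16, another transmembrane type, had 47, 56 and 42 counts in normoxia and 14, 27 and 26 in hypoxia. It too fell without overlap of the CPM values (2.50-fold, log2 fold change -1.32, SE 0.25, adjusted p = 0.00138). Mmp17, held in the membrane by a lipid anchor, went the other way, with 4.85, 5.12 and 6.24 CPM at 21% O2 and 12.4, 10.8 and 8.51 CPM at 1% O2. Its rise was 1.96-fold (log2 fold change 0.97, SE 0.16, adjusted p = 0.000738), and the lowest hypoxic sample, hypoxia 3, was above the highest normoxic one. Mmp23 was at 97.3 ± 5.90 and 74.6 ± 3.45 CPM and was not called at a fold of 1.305 (log2 fold change -0.38).

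**Figure D4:**
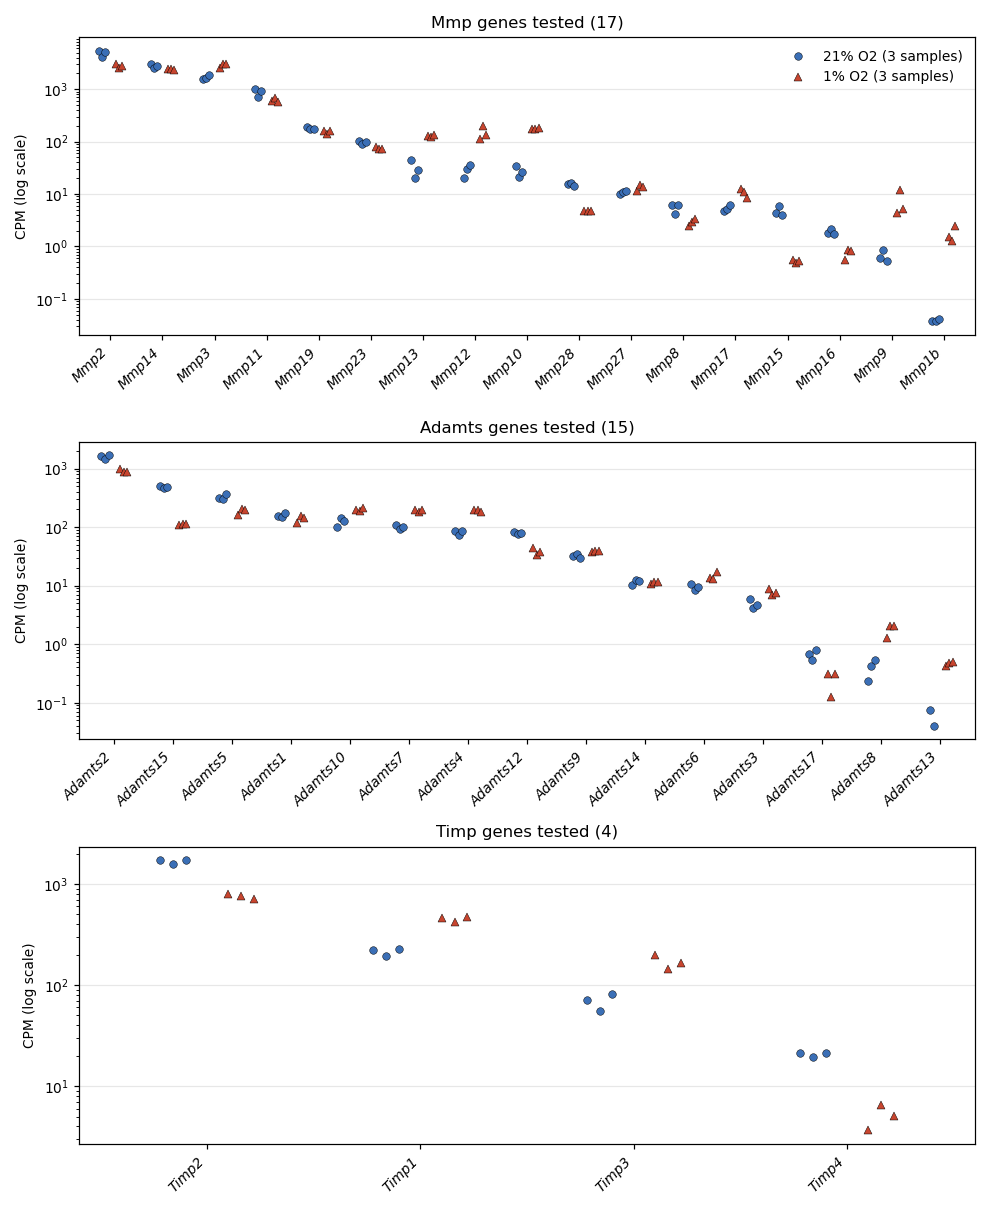
CPM (log scale) of the 36 tested members in each of the 6 samples, with circles for 21% O2 and triangles for 1% O2, ordered within each family by the normoxic mean. Adamts13 in normoxia 1 had 0 counts and has no point, and Mmp9 shows the widest spread of triangles among the Mmp genes.

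Among the Adamts proteases that cut aggrecan, versican and other proteoglycans, 2 rose, 2 fell and 2 were not called. Adamts15 (chr9:30899155-30922452), a versican- and aggrecan-cutting enzyme, was at 498, 458 and 483 CPM in normoxia and 107, 115 and 115 CPM in hypoxia. The values within each group were close together, and the level at 1% O2 was 4.27-fold lower (log2 fold change -2.09, SE 0.060, adjusted p = 3.74e-08). Adamts8 (chr9:30942562-30963838), its neighbor on chromosome 9 and on the other strand, was rare and moved oppositely, with 6, 11 and 13 counts in normoxia and 32, 63 and 66 in hypoxia. In CPM this was a 4.55-fold rise without overlap (log2 fold change 2.19, SE 0.35, adjusted p = 0.000513).

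Of the 2 classical aggrecanases, Adamts4 (chr1:171250421-171260637) had 87.4, 74.2 and 85.4 CPM at 21% O2 and 195, 199 and 182 CPM at 1% O2. It rose 2.34-fold (log2 fold change 1.22, SE 0.072, adjusted p = 1.35e-06), with the groups well apart. Adamts5 (chr16:85856173-85901828), the other aggrecanase, fell from 320.0, 303 and 370.5 CPM to 163, 206 and 195 CPM. Its highest hypoxic sample was below its lowest normoxic one (1.76-fold lower, log2 fold change -0.82, SE 0.10, adjusted p = 0.000118). Per kilobase the order of the pair was therefore turned, from 30.7 ± 3.27 for Adamts5 and 17.1 ± 1.48 for Adamts4 in normoxia to 17.4 ± 2.08 and 40.0 ± 1.81 in hypoxia. Adamts1, which adjoins Adamts5 on chromosome 16, was at 159.7 ± 14.2 and 139 ± 18.8 CPM, with overlapping groups (log2 fold change -0.20, SE 0.10, adjusted p = 0.111). Adamts9, a versicanase, was at 32.5 ± 2.39 and 38.4 ± 1.20 CPM and was not called (log2 fold change 0.24).

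The procollagen N-peptidases remove the amino-terminal propeptide of fibrillar procollagens before fibrils form. Adamts2 (chr11:50602084-50807573), the main enzyme for type I procollagen, had 1659, 1428 and 1674 CPM in normoxia and 968, 876 and 857 CPM in hypoxia. It fell 1.76-fold, with every hypoxic sample below every normoxic one (log2 fold change -0.82, SE 0.083, adjusted p = 3.35e-05). Adamts3, known for type II procollagen and for processing the lymphatic growth factor Vegfc, was 5.89, 4.13 and 4.70 CPM at 21% O2 and 8.63, 6.95 and 7.54 CPM at 1% O2. This rise was near the fold threshold (1.57-fold, log2 fold change 0.65, SE 0.16, adjusted p = 0.00565), and the call was lost without hypoxia 1 (log2 fold change 0.56) or without normoxia 2 (0.53). Adamts14 was at 11.8 ± 1.19 and 11.2 ± 0.606 CPM, with overlapping groups, and was not called (log2 fold change -0.07, SE 0.10, adjusted p = 0.586). Per kilobase, Adamts3 and Adamts14 together were a small part of the group, at 1.42 ± 0.157 and 2.16 ± 0.117 beside 96.4 ± 6.35 for Adamts2 at 1% O2.

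Adamts7 and Adamts12, both of which bind and cut cartilage oligomeric matrix protein (COMP), moved apart. Adamts7 rose from 107, 92.9 and 100.5 CPM to 195, 182 and 193 CPM (1.90-fold, log2 fold change 0.93, SE 0.064, adjusted p = 3.42e-06). Adamts12 fell from 82.7, 76.6 and 78.5 CPM to 43.2, 33.1 and 37.6 CPM (2.09-fold, log2 fold change -1.06, SE 0.090, adjusted p = 1.12e-05). In neither gene did the groups overlap. Adamts7 shares 122 exonic bases with the more abundant Tbc1d2b on the opposite strand, which had 11562 to 17521 counts and was not called.

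Adamts13, the plasma protease that cuts von Willebrand factor, had 0, 2 and 1 counts in normoxia and 11, 15 and 16 in hypoxia. The ratio of its summed counts, scaled for library size, was 12.2 with an exact 95% counting interval of 3.88 to 61.3, and it was called higher (adjusted p = 0.000796 in edgeR). The fitted value of so few counts depended on normoxia 2, with a log2 fold change of 3.46 with all samples and 4.29 without that library. Adamts10 and Adamts6, related enzymes linked to fibrillin microfibrils, were higher but close to the fold threshold. Adamts10 had 102, 144 and 127 CPM in normoxia and 193, 189.7 and 214 CPM in hypoxia (1.60-fold, log2 fold change 0.68, SE 0.11, adjusted p = 0.000741), and without normoxia 1 its log2 fold change was 0.55 and it was not called. Adamts6 had 10.7, 8.57 and 9.41 and 13.6, 13.0 and 17.0 CPM in the same order (1.52-fold, log2 fold change 0.61, SE 0.13, adjusted p = 0.00287), and it was not called without normoxia 2 (0.53) or without hypoxia 3 (0.48). For both, the hypoxic values lay above the normoxic ones. Adamts17, also linked to fibrillin, was rare, with 18, 14 and 20 counts in normoxia and 8, 4 and 10 in hypoxia, and was called lower without overlap in CPM (2.69-fold, log2 fold change -1.43, SE 0.39, adjusted p = 0.0111). The call was lost in DESeq2 with the replicate block (log2 fold change -1.50, adjusted p = 0.103).

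All 4 inhibitors were called, Timp1 and Timp3 higher and Timp2 and Timp4 lower. Timp1 (chrX:20870166-20874735), a secreted inhibitor of most soluble Mmps that acts weakly on several membrane types, was at 223, 192 and 226 CPM in normoxia and 464, 425 and 476 CPM in hypoxia. It rose 2.13-fold with the groups well apart (log2 fold change 1.09, SE 0.078, adjusted p = 4.16e-06). Timp3 (chr10:86300372-86349506), which is bound to the matrix and also inhibits Adamts4, Adamts5 and several Adam proteases, had 71.6, 55.2 and 82.4 CPM at 21% O2 and 199, 144 and 167 CPM at 1% O2. Its hypoxic samples varied more but stayed above all normoxic ones (2.44-fold, log2 fold change 1.29, SE 0.15, adjusted p = 8.47e-05).

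Timp2 (chr11:118301069-118355740), which inhibits Mmp2 and in a complex with Mmp14 also takes part in its activation, fell from 1717, 1584 and 1720.2 CPM to 797, 764 and 712 CPM. The level was 2.21-fold lower, and no hypoxic sample came near a normoxic one (log2 fold change -1.14, SE 0.070, adjusted p = 1.61e-06). Thus Mmp2 and Timp2 were both called lower, while Mmp14, the third member of that complex, was not called. Timp4 (chr6:115241892-115252205), the least abundant inhibitor, had 21.3, 19.4 and 21.1 CPM in normoxia and 3.65, 6.50 and 5.09 CPM in hypoxia (4.02-fold lower, log2 fold change -2.01, SE 0.17, adjusted p = 1.05e-05). Its lowest value was in hypoxia 1, and the groups did not overlap.

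Timp1, Timp3 and Timp4 each lie inside a synapsin gene on the opposite strand, Syn1, Syn3 and Syn2. No exonic base of Timp1 is shared. Timp3 shares 1733 of its 8144 exonic bases with Syn3, which had 10 to 38 counts in any library, and Timp4 shares 90 of 5894 with Syn2, at 30 to 105 counts. Spread evenly over its exons, the counts of Syn3 would place 1.41 to 5.36 in the bases shared with Timp3, which had at least 1455 counts in any library. Those of Syn2 would place 0.384 to 1.34 in the bases shared with Timp4, which had at least 93.

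The promoter windows of the 4 inhibitors were searched for the core of the hypoxia response element, ACGTG or GCGTG on either strand. It was present for Timp1 (higher) with 2 matches and for Timp2 (lower) and Timp3 (higher) with 1 each, and not for Timp4 (lower). Its relation to the direction of change was not tested. Over all matched members 14 of 31 windows held it, beside 43.8% of all windows, with 3 of 9 among those called higher and 3 of 8 among those called lower. It was in 8 of 10 Adamts and 3 of 17 Mmp windows. The 120 bases before the RefSeq start of Timp1 (chrX:20870046-20870165, plus strand, GRCm38.p6) are shown as the example called higher, with the core in capitals.
Timp1: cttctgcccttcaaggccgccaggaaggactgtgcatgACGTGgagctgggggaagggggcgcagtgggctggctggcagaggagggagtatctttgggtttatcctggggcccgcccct
TATAAA was in 8 of 17 Mmp, 1 of 10 Adamts and 0 of 4 Timp windows, and in 13.6% of all windows. The NF-kB motif was in 5 of the 31 member windows and in 8.46% of all.

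Related genes outside these families were counted in the same fit, in which 34.2% of all tested genes were called. Of the activators and cell-surface partners of Mmps, 13 of 14 were tested, 4 were higher and 1 lower, a share near that of all genes. Bsg, also known as the inducer of extracellular matrix metalloproteases, went from 728 ± 22.6 to 2315 ± 106 CPM (SD, n = 3, log2 fold change 1.67, SE 0.066, adjusted p = 1.35e-07). Itgb3, the beta subunit of an integrin that binds Mmp2, went from 15.002 ± 2.17 to 45.6 ± 2.62 CPM (log2 fold change 1.60). Pcsk6, a convertase that processes proproteins, was the one that fell (51.1 ± 4.97 to 30.1 ± 3.75 CPM, log2 fold change -0.76). Furin, which activates Mmp11, the membrane types and many Adamts proteases, was not called (log2 fold change -0.23).

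Of the 10 tested protease inhibitors outside the Timp family, 4 were higher and 1 lower, beside 34.2% called over all genes. Serpinb2, an inhibitor of plasminogen activators, was at 1.62 ± 0.388 and 34.0 ± 0.721 CPM (log2 fold change 4.39). A2m, alpha-2-macroglobulin, which traps proteases of every class including Mmps, was at 63.6 ± 16.6 and 709.9 ± 29.6 CPM (log2 fold change 3.48, SE 0.16, adjusted p = 3.17e-07). Serpine2 fell (515 ± 53.9 to 307 ± 39.9 CPM, log2 fold change -0.75). Reck, a membrane inhibitor of Mmp2, Mmp9 and Mmp14, was not called (log2 fold change -0.09). Of the 6 Adamts-like genes and papilin, 0 were higher and 2 lower, Adamtsl2 (log2 fold change -1.52) and Adamtsl3 (-0.82), beside 34.2% over all genes. Adamtsl3 was not called without hypoxia 1 (-0.67) or without normoxia 2 (-0.57).

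Among 17 other tested matrix proteases 1 was higher, the serine protease Htra1 (452 ± 63.8 to 949 ± 66.8 CPM, log2 fold change 1.07), and 3 were lower, a smaller share than the 34.2% of all genes. Adam12, a membrane metalloprotease of activated fibroblasts, fell from 409 ± 28.9 to 81.3 ± 6.14 CPM (log2 fold change -2.33, SE 0.078, adjusted p = 6.20e-08). The lysosomal cathepsin Ctsb fell from 4079.8 ± 130.5 to 2406 ± 74.2 CPM (log2 fold change -0.76). Among 16 tested matrix substrates 1 was higher and 4 were lower, a share near the 34.2% of all genes. Fn1, fibronectin, rose from 7389.8 ± 1669 to 13784 ± 609 CPM (log2 fold change 0.90). Eln, elastin, a substrate of Mmp12 and Mmp9, fell from 154 ± 21.3 to 33.2 ± 1.503 CPM (log2 fold change -2.22, SE 0.10, adjusted p = 2.80e-07), and Fbn2, a fibrillin, had a log2 fold change of -1.05. The median log2 fold change of these lists ran from -0.25 for the substrates to 0.32 for the activators and partners.

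The remaining 9 members did not pass the filter. Mmp7 (matrilysin), Mmp20 (enamelysin of teeth) and Adamts18 were at 0 counts in all 6 libraries, which allows up to 3 counts, or 0.122 CPM, in the shallowest library. Mmp21 reached 2 counts and Adamts16 reached 1. The lipid-anchored Mmp25 had 3 to 8 counts, and the neural membrane type Mmp24 had 1, 2 and 3 counts in normoxia and 5, 16 and 17 in hypoxia. Mmp24 shares 637 exonic bases with BC029722 on the opposite strand, at 1089 to 1199 counts. Spread evenly over its exons, the counts of BC029722 would place 429.5 to 472.9 in these bases, beside at most 17 counts of Mmp24. Adamts20 had at most 16 counts, and Adamts19 had 5, 26 and 8 counts in normoxia and 0, 8 and 1 in hypoxia. In the fit with no filter, 6 of the 9 gave a value and 2 were called by edgeR, Mmp24 higher (log2 fold change 2.34, adjusted p = 0.00559) and Adamts19 lower (-2.298, adjusted p = 0.0176). The counts of Mmp24 did not overlap between the groups and those of Adamts19 did.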

How the data were processed

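RNA from PSCs cocultured with mT3 organoids was measured in 6 samples, grouped by the oxygen level in their labels, 3 at 21% and 3 at 1% O2. Poly(A) libraries were sequenced by the authors on a NovaSeq-6000. Reads were trimmed (Cutadapt), aligned to GRCm38 with STAR (2.6.1b) and counted per gene with RSEM (1.3.1). The authors deposited the resulting expected counts without normalization between samples. All of these estimated counts were whole numbers as deposited (0 with a fraction), so rounding had no effect. Reads that fit more than one gene are split by RSEM, which leaves near-identical genes uncertain. The annotation release and the strand setting of the counting are not given in the sources used here. Of the 55426 identifiers, 55240 were found in GENCODE M21 on GRCm38, which gave names, coordinates and exonic lengths, and 186 were not.

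Expected counts were filtered with filterByExpr, scaled by TMM and compared with the quasi-likelihood test of edgeR 4.0.16 (limma 3.58.1, R 4.3.3). The p-values were adjusted by Benjamini-Hochberg over all 16207 genes tested. Thresholds were a linear fold change of 1.5 in either direction, which the methods of the study also use, and an adjusted p of 0.05. No p was adjusted over the members alone and no set test was run. Standard errors (SE) were the absolute log2 fold change over the square root of the F statistic. For Mmp1b and Adamts13, with 3 counts in all in normoxia, the ratio of summed counts was given with an exact interval, since a fitted fold depends on the prior count. Replicates of one group differed by a chi-square of 5.68 to 22.5 per degree of freedom over genes, above sampling noise, and each was counted as 1 sample. The tests were tested on simulated data.

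The members, roles, related lists and cell markers were chosen with earlier results of these data known. Every member could be named, and each related list was named by the 2 called genes of highest log2 fold change and the 2 of lowest. Furin, Reck, Lyz2 and Krt19 were added after their values were seen. Alternatives were the replicate block, other normalizations, filters and thresholds, DESeq2 (1.42.0) with and without the block, limma-voom, corrections for exonic length and GC content, each sample left out, and for the sums the length of the longest coding transcript. Promoter windows came from RefSeq (GRCm38.p6). Figures were drawn with matplotlib 3.10.9. The other experiments of the study were not analysed here.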

Additional observations from a re-analysis of the deposited data

How the results depend on the processing

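All 36 tested members kept their direction, and 24 of the 28 called kept the call, in each of the 16 alternative fits that gave them a value. The stricter filter left out Adamts13 and Adamts17, with 10 Adamts genes called. The calls of Adamts3 (length correction, log2 fold change 0.57), Adamts10 (GC correction, 0.54), Adamts17 (DESeq2 with replicate block, -1.50, adjusted p = 0.103 in DESeq2) and Adamts6 (upper-quartile normalization 0.58, no filter 0.58, length correction 0.53) were lost, as were those of Adamts3, Adamts10 and Adamts6 without single libraries as given beside their values. Mmp11 passed the fold threshold with the GC correction (-0.61). The cause was not tested.

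Over all genes 5547 were called, 10168 with no fold threshold and 3156 at a fold change of 2. At a fold change of 2 the calls were 6 of 12 for Adamts genes, 1 of 2 for the Adamts-like list, 2 of 4 for other matrix proteases and 2 of 5 for matrix substrates. With no fold threshold they were 10 against 5 for activators and partners, 9 against 4 for other matrix proteases and 11 against 5 for matrix substrates. DESeq2 with replicate block called 1 Adamts-like gene, and with single samples left out this count ran from 1 to 3, being 1 without hypoxia 1 or normoxia 2 and 3 without normoxia 3. The per-kilobase Mmp sum at 1% over that at 21% O2 was 0.999, 1.001 with DESeq2 size factors, and 0.946 to 1.03 with single samples left out, above 1 without normoxia 1, normoxia 3 or hypoxia 1.

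In the edgeR fit with the replicate block, 12 Mmp, 12 Adamts and 4 Timp genes were called, as without it, and 5572 of all genes. The numbers 1 to 3 are shared by both groups, and the labels do not say whether they mark pairs. Deviations of same-numbered samples correlated at 0.14, 0.14 and 0.04 over the tested genes. Genes of low count weigh like all others in this correlation, so it cannot decide whether these are pairs. The main fit treated the samples as unpaired. With no filter, 13 Mmp genes were called, Mmp24 added, and 12 Adamts genes, with Adamts19 added and Adamts6 lost. Low counts limit the precision for Mmp1b and Adamts13.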
